A study of Mus musculus with 2 samples.

Results

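The nuclear genes of the respiratory chain are the genes on the chromosomes that code for the proteins of oxidative phosphorylation. They were chosen by gene name: protein-coding genes in both gene tables whose mouse symbol starts with Nduf, Uqcr or Atp5, the 4 Sdh genes, Cyc1, Cycs, and Cox followed by a digit from 4 to 8. This gave 95 of the 21474 protein-coding genes in the tables. Complex I had 44 of them, complex II had 4, complex III had 9, cytochrome c had 1, complex IV had 20 and complex V, the ATP synthase, had 17. Some belong to the families by name without being structural subunits: 8 assembly factors of complex I, Cox7a2l, which takes part in joining complexes III and IV, and Atp5s. Another 8 are alternative, tissue-restricted forms of complex IV proteins. The other 77 are called general subunits here.

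The study sequenced polyadenylated RNA of adult mouse ovary, in 2 libraries that form 1 group. Both came from littermate C57BL/6J females aged 8 weeks, with no treatment or mutation named in the labels. RNA above 200 nucleotides was used after removal of ribosomal RNA, and paired stranded reads of 76 bases were made on an Illumina GAIIx. Both libraries are labelled as biological replicates but point to a single donor record, so differences between them may be technical. The test between them covers the counting error of reads alone, with no estimate of the spread between libraries. Whole ovary holds granulosa, theca, luteal, stromal and vessel cells and oocytes, and fewer cells of a type cannot be told apart from less RNA per cell. The design has no second condition, and the comparison it allows is of replicate 2 with replicate 1.

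The respiratory chain sits in the inner membrane of the mitochondrion. Complexes I and II pass electrons from NADH and succinate to ubiquinone, complex III passes them to cytochrome c, and complex IV passes them to oxygen. Complexes I, III and IV pump protons, and complex V lets them back through a rotating ring of c subunits and makes ATP. A small number of subunits are coded by the mitochondrial genome, and the nuclear genes code for all others. In the ovary the chain serves oocytes, which rely on mitochondrial ATP, and steroid-making cells, whose first step of hormone synthesis takes place in mitochondria.

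The c subunit shows how several nuclear genes can supply a single part of the chain. It is coded by Atp5g1 on chromosome 11 (96068852 to 96075670, minus strand), Atp5g2 on chromosome 15 (102662864 to 102672352, minus strand) and Atp5g3 on chromosome 2 (73908447 to 73911326, minus strand) of GRCm38 (mm10). The sequences printed are the last 225 coding bases before the stop codon, from the GENCODE M21 transcripts, and are shown because all 3 genes were abundant in these libraries. Capitals mark each position where the 3 genes do not all have the same base.
Atp5g1: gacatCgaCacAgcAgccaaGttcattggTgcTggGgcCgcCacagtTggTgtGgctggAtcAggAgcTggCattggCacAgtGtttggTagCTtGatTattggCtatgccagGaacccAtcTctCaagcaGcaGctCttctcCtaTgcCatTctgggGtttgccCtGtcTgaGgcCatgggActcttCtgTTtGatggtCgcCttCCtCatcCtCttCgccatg
Atp5g2: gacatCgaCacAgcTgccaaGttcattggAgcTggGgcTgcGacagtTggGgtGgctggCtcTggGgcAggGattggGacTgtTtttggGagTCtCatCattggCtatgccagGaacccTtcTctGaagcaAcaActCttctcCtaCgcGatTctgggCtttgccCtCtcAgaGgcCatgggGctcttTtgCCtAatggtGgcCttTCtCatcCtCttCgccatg
Atp5g3: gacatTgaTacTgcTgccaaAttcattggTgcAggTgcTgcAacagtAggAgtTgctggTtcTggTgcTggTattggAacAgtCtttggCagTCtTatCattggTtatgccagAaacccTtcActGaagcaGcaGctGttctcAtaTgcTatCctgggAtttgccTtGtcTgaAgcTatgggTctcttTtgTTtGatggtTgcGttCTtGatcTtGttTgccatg
Capitals fall on 57 of the 225 positions, and 52 of these are at the third position of a codon. Atp5g1 and Atp5g2 differed at 34 positions, Atp5g1 and Atp5g3 at 45, and Atp5g2 and Atp5g3 at 48. All 3 stretches translate to the same 75 amino acids.

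All 3 c subunit genes were among the higher members of complex V. Levels are in TPM (a transcript abundance scaled to the same total in each library), which divides by effective transcript length. Comparisons between genes depend on that length, above all for short transcripts. With full annotated length instead, the mean TPM of 36 members moved by more than the SD of the 2 libraries, and 59 stayed within it. Atp5g2 stood at 863 TPM in replicate 2 and 871 TPM in replicate 1. Atp5g3 stood at 603 TPM in replicate 2 and 739 TPM in replicate 1, and Atp5g1 at 430.4 and 514 TPM. The order Atp5g2, Atp5g3, Atp5g1 was the same in both libraries. Atp5g2 gave 43.3% ± 3.17 of their summed TPM, Atp5g3 33.3% ± 2.11 and Atp5g1 23.4% ± 1.07 (SD, n = 2 libraries each). Copies of these coding sequences elsewhere in the genome held few reads, 1.64% and 1.60% of the reads of Atp5g2 with its copies in replicates 2 and 1.

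Nearly all members were found in the ovary. A TPM of at least 1 in both libraries was reached by 91 of the 95 members, against 62.0% of all protein-coding genes. The median over the 77 general subunits was 138 TPM in replicate 2 and 153 TPM in replicate 1. Protein-coding genes that reached that level in both libraries had a median of 17.8 TPM. Together the 95 members took 3.18% of all TPM in replicate 2 and 3.26% in replicate 1. Among members with reads the highest mean, that of Atp5b, was 5392-fold the lowest, that of Cycs. This fold is rough. Most of the Atp5b level lay on transcripts not annotated as coding, with a mean of 359 TPM in coding transcripts, and the level of Cycs is uncertain because of copies. In all, 6 members had a mean of at least 1000 TPM, 44 lay from 100 to 1000 TPM, 29 from 10 to 100 TPM and 16 below 10 TPM. The 4 members that missed the threshold were Cycs, Ndufa5, Cox7b2 and Cox8c.

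**Figure D1:**
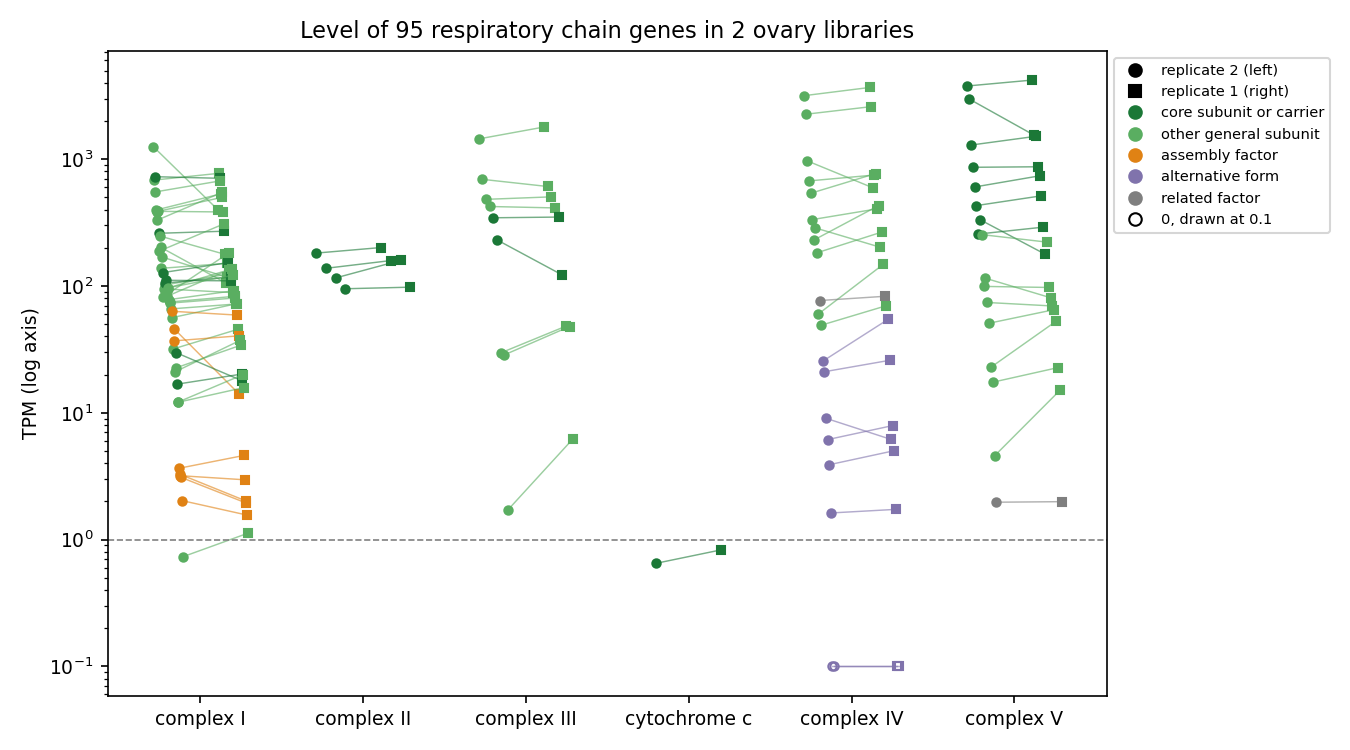
TPM on a log axis for each of the 95 genes, by complex, with replicate 2 as circles on the left joined to replicate 1 as squares on the right, coloured by class of gene, and the dashed line at a TPM of 1. Complexes III, IV and V have members above 1000 TPM in both libraries, and the 4 genes of complex II lie close together. Assembly factors and alternative forms lie below most general subunits of their complex by mean, though all assembly factors lie above Ndufa5.

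Complex I takes electrons from NADH, and its nuclear core subunits hold the flavin and the iron-sulfur clusters that carry them inward. The highest of them was Ndufs7, an iron-sulfur subunit next to the ubiquinone site, at 728 TPM in replicate 2 and 706 TPM in replicate 1. Ndufs8, another iron-sulfur subunit, followed at 260.2 and 270.2 TPM in replicates 2 and 1. Ndufs3 and Ndufv1, the flavin subunit that meets NADH, had means of 140.1 and 112 TPM. The core subunits at the low end were Ndufv2, at 29.7 TPM in replicate 2 and 17.96 TPM in replicate 1, and Ndufs1, at 16.8 and 20.2 TPM. Both are subunits of the same electron input arm as Ndufv1. So the highest core subunit stood 38.7-fold above the lowest.

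The 29 accessory subunits of complex I, which surround the core, had a median of 94.4 TPM in replicate 2 and 121 TPM in replicate 1. Ndufab1, the mitochondrial acyl carrier protein, was the highest by mean but the libraries disagreed, with 1257 TPM in replicate 2 and 396 TPM in replicate 1. Ndufb8, a membrane arm subunit, was higher than Ndufab1 in replicate 1, with 684 TPM in replicate 2 and 774 TPM in replicate 1. The lowest accessory subunit was Ndufa5, a subunit of the matrix arm, with 12 counts and 0.73 TPM in replicate 2 and 15 counts and 1.12 TPM in replicate 1. Above Ndufa5 came Ndufs5 (12.1 and 15.8 TPM in replicates 2 and 1) and Ndufb3 (12.11 and 19.97 TPM), so Ndufa5 stood apart from the next accessory subunits in both libraries. No annotated copy of the Ndufa5 coding sequence met the criterion used here, 95% identity over 80% of its length.

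The 8 assembly factors of complex I, which help to build it and leave, had a median of 3.46 TPM in replicate 2 and 3.79 TPM in replicate 1. All 8 reached a TPM of 1 in both libraries. Ndufaf8 was highest at 63.1 and 58.9 TPM in replicates 2 and 1, and Ndufaf3 stood at 36.9 and 40.4 TPM. Ndufaf6 had 45.8 TPM in replicate 2 and 13.9 TPM in replicate 1. The other 5, Ndufaf1, Ndufaf2, Ndufaf4, Ndufaf5 and Ndufaf7, had means from 1.80 to 4.13 TPM. Factors that assemble the chain but lie outside the naming rule, 40 of them measured, had a median of 20.7 TPM in replicate 2 and 22.4 TPM in replicate 1, with 36 of 40 above a TPM of 1 in both libraries.

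Complex II, succinate dehydrogenase, also works in the TCA cycle and is coded by nuclear genes alone. Among complexes I to V it had the smallest fold between highest and lowest general subunit, but with 4 genes also the fewest members. Sdhb, the iron-sulfur subunit, stood at 182 TPM in replicate 2 and 201 TPM in replicate 1. Sdhd and Sdhc, the membrane anchors, stood at 138 and 159 TPM (Sdhd) and 116 and 159 TPM (Sdhc) in replicates 2 and 1. Sdha, the flavoprotein that oxidises succinate, was the lowest at 95.1 and 97.8 TPM. The highest mean was 1.98-fold the lowest, and Sdhc and Sdhd did not differ beyond their spread. For the other TCA cycle enzymes, 14 genes, the median was 88.6 TPM in replicate 2 and 98.9 TPM in replicate 1.

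Complex III passes electrons from ubiquinol to cytochrome c. Its 9 genes had a median of 345 TPM in replicate 2 and 349 TPM in replicate 1. Uqcr11, the smallest subunit, led with 1445 TPM in replicate 2 and 1792 TPM in replicate 1. Cyc1, cytochrome c1, was nearly equal in the libraries at 345 and 349 TPM, while Uqcrfs1, the Rieske iron-sulfur protein, had 231 TPM in replicate 2 and 122 TPM in replicate 1. The core proteins Uqcrc1 and Uqcrc2, which form the matrix part as a pair, were far apart: Uqcrc1 stood at 693 and 609 TPM in replicates 2 and 1, and Uqcrc2 at 28.6 and 47.9 TPM. Uqcrb, a small subunit beside cytochrome b, was the lowest. It had 14 counts and 1.72 TPM in replicate 2, against 57 counts and 6.26 TPM in replicate 1.

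Cycs codes for somatic cytochrome c, the soluble carrier between complexes III and IV, and lies on chromosome 6 (50562563 to 50566538, minus strand). It was at 31.7 counts and 0.65 TPM in replicate 2 and 58.2 counts and 0.83 TPM in replicate 1, far below Cyc1 of complex III in both libraries. The coding transcript of Cycs is long, 3123 bases, so few counts give a low TPM. Cycs has 4 annotated copies of its coding sequence with at least 95% identity, 1 of them annotated as protein-coding, which together held 22.3 counts in replicate 2 and 43.8 counts in replicate 1. These were 41.4% and 42.9% of the reads assigned to Cycs and its copies in replicates 2 and 1. The sources used here do not say how reads that fit several copies were counted, so the level of Cycs is uncertain.

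Complex IV, cytochrome c oxidase, hands electrons to oxygen, and its nuclear subunits surround a core coded by the mitochondrial genome. The 11 general subunits had a median of 334 TPM in replicate 2 and 431 TPM in replicate 1. Cox6a1 led with 3169.7 TPM in replicate 2 and 3675 TPM in replicate 1, followed by Cox8a with 2261 and 2595 TPM. These belonged to the 6 members with a mean of at least 1000 TPM. Cox5a had 967 TPM in replicate 2 and 596 TPM in replicate 1, and Cox4i1, which with Cox5a forms an early step of assembly, had 674 and 749 TPM. Cox7a2 was the lowest general subunit at 49.1 and 69.9 TPM in replicates 2 and 1, next to Cox7b at 60.0 and 148 TPM. Ndufa4, first assigned to complex I and now placed in complex IV, stood at 334 TPM in replicate 2 and 406 TPM in replicate 1.

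Several complex IV subunits have a second gene used in other tissues, and here these alternative forms were the lower ones in each set. Cox4i2, an alternative form of subunit 4 known from lung and responsive to oxygen, made up 1.07% ± 0.359 of the TPM of its pair, with 9.04 TPM in replicate 2 and 6.16 TPM in replicate 1. Cox6b2, known as the testis form of subunit 6b, had the largest share of the alternative forms, 10.6% ± 0.861, at 25.6 TPM in replicate 2 and 54.5 TPM in replicate 1. Ndufa4l2, a relative of Ndufa4 induced in low oxygen, made up 5.97% ± 0.0454 of that pair at 21.1 and 25.9 TPM (SD, n = 2 libraries each). In the subunit 7a set Cox7a2l held 54.9% ± 4.66, Cox7a2 40.3% ± 4.47 and the muscle form Cox7a1 4.79% ± 0.194. The heart and skeletal muscle forms had low levels. Cox7a1 stood at 6.14 and 7.92 TPM, Cox8b at 3.89 and 5.02 TPM and Cox6a2 at 1.62 and 1.73 TPM in replicates 2 and 1, on 15 to 32 counts each. Cox7b2 and Cox8c, the testis forms, had 0 counts in both libraries, and a limit of 3 counts allows up to 0.362 and 0.323 TPM for Cox7b2 and 0.450 and 0.408 TPM for Cox8c in replicates 2 and 1.

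**Figure D2:**
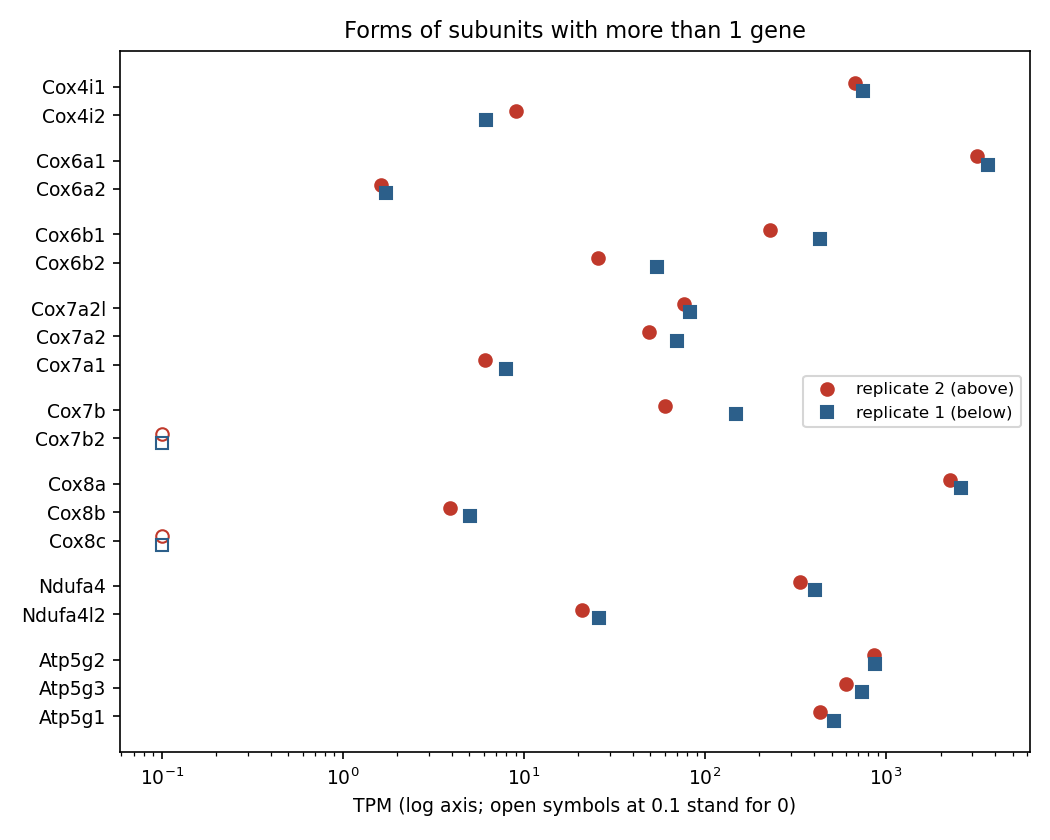
TPM on a log axis for each gene of the subunits that have more than 1 gene, with replicate 2 as circles above and replicate 1 as squares below. The general forms Cox4i1, Cox6a1, Cox6b1, Cox8a and Ndufa4 stand above their alternative forms in both libraries, the 3 c subunit genes lie close together, and Cox7b2 and Cox8c are at 0.

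Markers of the cells known to use such forms are given beside them. For the muscle forms, striated muscle markers were low, with 5 of 12 reaching 1 TPM in each library. They summed to 32.3 TPM in replicate 2 and 33.1 TPM in replicate 1, most of it Acta1. Of the myosin heavy chains in the list Myh4 had 0 counts in both libraries, Myh1 had 2 and 2, Myh2 had 3 and 0, and Myh6 had 18 and 22.99 counts in replicates 2 and 1. Brown adipocyte markers, since Cox7a1 and Cox8b are also high in brown fat, summed to 4.18 and 3.98 TPM in replicates 2 and 1, with 1 of 4 reaching 1 TPM in each library. Most of that sum was Cidea, at 3.22 and 3.61 TPM, while Ucp1 had 2 and 4 counts and Elovl3 0. Otop1 had 65 counts in replicate 2 and 23 counts in replicate 1, over 2-fold higher in replicate 2. For Cox4i2 and Ndufa4l2, which pericytes also express, all 7 pericyte markers were present and summed to 184 TPM in replicate 2 and 179.6 TPM in replicate 1. Their part in the levels of these forms was not tested.

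Complex V makes ATP with a catalytic head, a central stalk, a side stalk and a membrane ring. Its 16 general subunits had a median of 255 TPM in replicate 2 and 199.9 TPM in replicate 1. Atp5b, the catalytic beta subunit, had the highest level of all 95 members, 3775 TPM in replicate 2 and 4205 TPM in replicate 1. Atp5d, the delta subunit of the central stalk, had 2986 TPM in replicate 2 and 1545 TPM in replicate 1. Atp5a1, the alpha subunit, had 1291 and 1515 TPM. The gamma and epsilon subunits of the same stalk were lower, Atp5c1 at 257 and 291 TPM and Atp5e at 333 and 178 TPM in replicates 2 and 1. At the low end were Atp5mpl, a small membrane protein of the complex, at 4.58 and 15.0 TPM, and Atp5k at 17.4 and 22.7 TPM. Atp5s, which is not a structural subunit, stood at 1.97 TPM in replicate 2 and 1.99 TPM in replicate 1.

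For Atp5b and Atp5a1, 2 of the 6 members with a mean of at least 1000 TPM, most of the gene level was on transcripts that are not annotated as coding. Coding transcripts held nearly all the TPM of the other 4, Cox6a1, Cox8a, Atp5d and Uqcr11. Among 59 members that have 2 or more transcripts and average at least 100 counts, the transcript with the largest share of the gene's TPM was non-coding in both libraries for 7, or 11.9%, against 13.3% of such protein-coding genes. That is close to the background. The 7 were Atp5b, Atp5a1, Ndufab1, Ndufb10, Ndufs1, Ndufaf4 and Ndufaf6. In Atp5b the coding transcript held 8.46% of the gene's TPM in replicate 2 and 9.47% in replicate 1. A processed transcript of 343 bases, Atp5b-207, held 71.3% in replicate 2 and 66.9% in replicate 1. Of its bases, 96.5% lie in exons of the coding transcript, so reads in that stretch fit both. In Atp5a1 a transcript with a retained intron, of 765 bases, held 75.5% in replicate 2 and 48.6% in replicate 1. In Ndufab1 a retained-intron transcript of 443 bases held 77.5% in replicate 2 and 69.4% in replicate 1.

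Short transcripts weigh heavily in TPM, and in counts the picture differed. Atp5b-207 had 9130 counts in replicate 2 and 9627 counts in replicate 1, against 13437 and 19864 counts of the coding transcript. The most counts in Atp5b went to the retained-intron transcript Atp5b-205 of 1131 bases, with 16549 in replicate 2 and 25867 in replicate 1. When transcripts are ranked by expected count, only Atp5b, Ndufb10 and Ndufaf4 of the 7 had a non-coding leader in both libraries. Summed over coding transcripts alone, Atp5b stood at 319.5 TPM in replicate 2 and 398 TPM in replicate 1. Atp5a1 stood at 225 and 386 TPM, Ndufab1 at 281 and 118 TPM, and Ndufb10 at 23.6 and 27.3 TPM in replicates 2 and 1. On that scale Cox6a1 was the highest member, and Atp5b held rank 21 and Atp5a1 rank 25 of 95. Coding transcripts held under 50% of the TPM in both libraries for 6 members: Atp5b, Atp5a1, Ndufab1, Ndufb10, Ndufaf4 and Ndufaf6. The share of all protein-coding genes under 50% was not counted, so the 6 cannot be read as a trait of these genes.

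**Figure D3:**
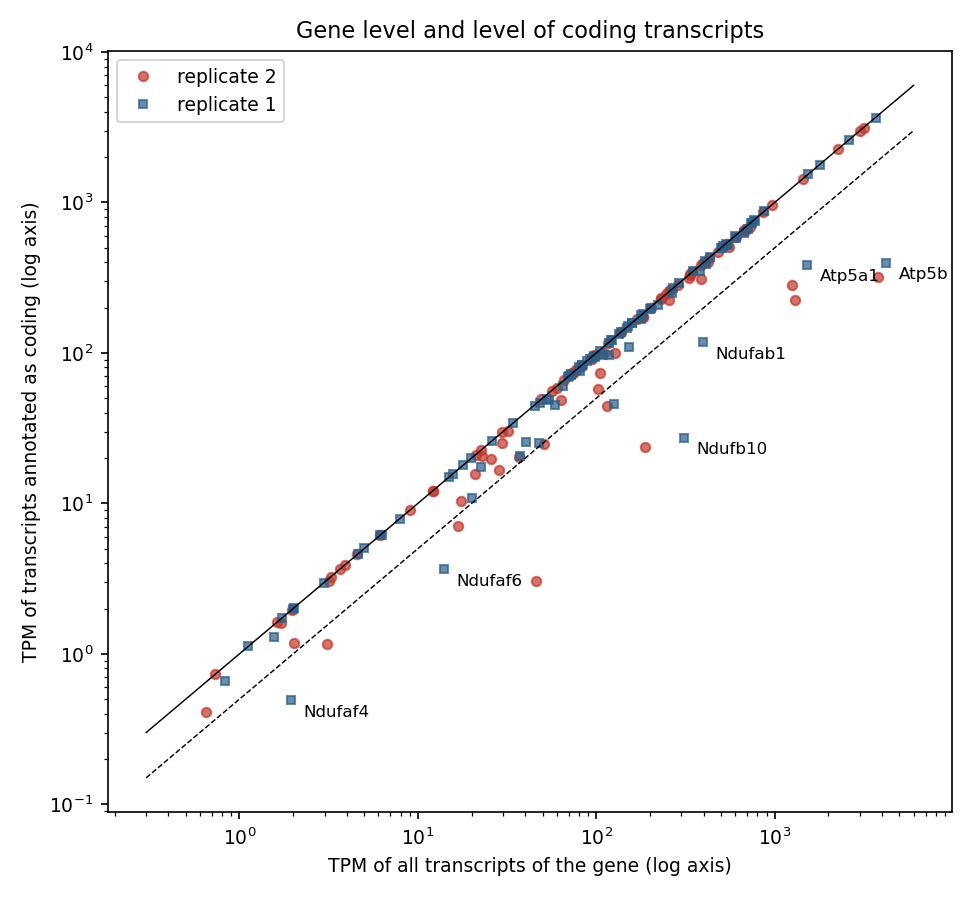
For each of the 93 members above 0, the TPM of transcripts annotated as coding (vertical, log axis) against the TPM of all transcripts of the gene (horizontal, log axis), with replicate 2 as circles and replicate 1 as squares, the solid line at equality and the dashed line at 50%. Most members lie on the solid line, and the 6 named genes lie below the dashed line in both libraries.

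The leading transcript differed between the libraries for 4 of the 59 members, 6.78%, against 14.2% of protein-coding genes with as many transcripts and counts. In Atp5d both leaders were coding. Atp5d-202 held 73.5% of the TPM in replicate 2 and 29.95% in replicate 1, and Atp5d-201 held 26.1% and 68.5%. In Atp5f1, subunit b of the side stalk, a retained-intron transcript held 59.8% in replicate 2 and 3.41% in replicate 1, while the coding transcript held 38.8% and 93.8%. Atp5j2, subunit f of the membrane part, was led in replicate 2 by a transcript annotated for nonsense-mediated decay, with 51.0% there and 7.81% in replicate 1. In Ndufa10 the coding leader held 56.4% in replicate 2 and 36.6% in replicate 1, and a retained-intron transcript held 38.8% and 59.6%. The share of the leader in replicate 2 moved by more than 20 percentage points in 7 of the 59 members, 11.9%, against 12.9% of such protein-coding genes. Besides Atp5d, Atp5f1 and Atp5j2 these were Atp5a1, Ndufaf6, Ndufb8 and Ndufc2. The Atp5d-202 shares rest on many reads, 31065 counts in replicate 2 and 7568 counts in replicate 1.

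Near-identical copies bear on a few members. Of the 95 members, 22 had at least 1 annotated copy with 95% identity over 80% of the coding sequence, 39 copies in all, of which 36 are annotated as pseudogenes and 19 held any reads. In 3 members the copies held over 10% of the reads in both libraries. Beside Cycs these were Ndufb4 and Ndufa12, accessory subunits of complex I. The copy Ndufb4c, a processed pseudogene on chromosome 15 with 100% identity over the 390 coding bases, had 1927 counts in replicate 2 and 1820 counts in replicate 1, against 1049 and 1576 counts of Ndufb4 itself. The copy of Ndufa12 had 270.0 and 418 counts in replicates 2 and 1, against 312 and 513 counts of the gene. Levels of Ndufb4 (56.2 TPM in replicate 2, 72.5 TPM in replicate 1) and Ndufa12 (31.8 and 45.6 TPM) are uncertain for that reason. The low members Uqcrb and Cycs have copies, and the copies of Uqcrb were all at 0 counts.

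Between the libraries the typical distance of the members was close to that of other genes, but fewer of them lay near equality and more of them were lower in replicate 2. Over 91 members with a mean count of at least 20, the median distance between the libraries was 0.24 on the log2 scale, in either direction, against 0.23 over all 15939 genes tested. Of these members 64 lay within 1.5-fold, or 70.3%, against 84.7% of all genes tested. The median signed log2 ratio, replicate 2 over replicate 1, was -0.09 over the members and -0.01 over all genes tested. By the two-sided exact binomial test with Benjamini-Hochberg adjustment over all genes, 24 members (26.4%) were higher in replicate 2, against 29.1% of all genes, and 44 (48.4%) were lower, against 27.0%. Scaling by the ERCC spike-ins instead lowered every log2 ratio by 0.43. It gave 13 of the 91 members higher and 71 lower in replicate 2. Of all 15939 genes, 1142 (7.16%) were higher and 11431 (71.7%) lower, so both shares were then larger among the members. The test compares the reads of 2 libraries, not conditions, and deep genes pass it at small ratios.

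**Figure D4:**
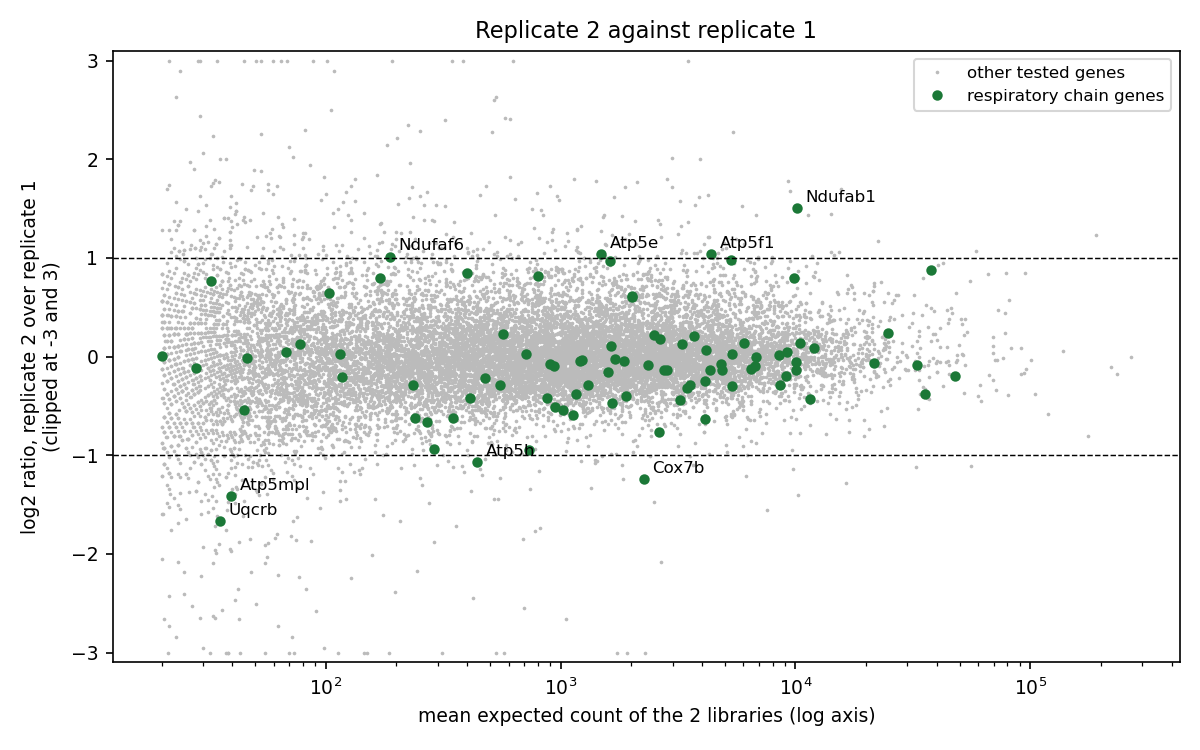
Log2 ratio of replicate 2 over replicate 1 (vertical, clipped at -3 and 3) against the mean expected count (horizontal, log axis) for the 91 members tested, in green, and the other genes tested, in grey, with dashed lines at 2-fold. Members lie on either side of 0, and the 8 named members lie outside the dashed lines.

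Of the 91 members tested, 4 were more than 2-fold higher in replicate 2 (2.28% of all genes tested were) and 4 lower (1.71% of all genes tested). Ndufab1, the acyl carrier protein, had 14228 counts in replicate 2 and 6164 counts in replicate 1, a log2 ratio of 1.51. Atp5e and Atp5f1 of complex V had log2 ratios of 1.04 each, and the assembly factor Ndufaf6, at 234 counts in replicate 2 and 142 counts in replicate 1, had 1.01. Cox7b, a complex IV subunit, had 1158 counts in replicate 2 and 3365 counts in replicate 1, a log2 ratio of -1.24. Atp5h, subunit d of the side stalk of complex V, had a log2 ratio of -1.07 with 246 and 637 counts in replicates 2 and 1. Uqcrb (14 and 57 counts) and Atp5mpl (18 and 61 counts) had the lowest ratios, -1.66 and -1.42, on few reads. All 8 passed the exact binomial test, which covers counting error only and which over 50% of all genes passed in either direction.

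Some of these ratios changed sign in coding transcripts alone. There Atp5f1 was lower in replicate 2, at 44.6 TPM against 75.7 TPM in replicate 1, with a log2 ratio from counts of -0.71. Ndufaf6 had 3.06 TPM in replicate 2 and 3.66 TPM in replicate 1, with a log2 ratio from counts of -0.19. Of the bases of the leading transcript in replicate 2, 18.4% lie in exons of the coding transcript for Atp5f1 and 99.7% for Ndufaf6. Reads of Ndufaf6 in that stretch fit both transcripts, so its ratio cannot be placed outside the coding message. Ndufab1 was higher in replicate 2 on either count. Just inside the 2-fold line were Uqcrfs1 and Ndufb5, higher in replicate 2 with log2 ratios of 0.98 and 0.97, and Ndufa1 and Cox6b2, lower with -0.95 and -0.94. Cox6b1 and Ndufs6 followed at -0.76 and -0.67. The exact binomial test called 29.1% of all genes tested higher in replicate 2 and 27.0% lower. In complex III, 4 of 9 members were higher (44.4%) and 4 lower (44.4%). In complex V, 6 of 17 were higher (35.3%) and 8 lower (47.1%). Complex IV had 3 higher (17.6%) and 11 lower (64.7%) of 17 tested. Complex I had 11 higher (25.6%) and 18 lower (41.9%) of 43, and complex II had 0 higher and 3 lower of 4.

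The mitochondrial genome codes for the remaining subunits of complexes I, III, IV and V, and its messages moved differently between the libraries. Of 12 such messages tested, 0 were higher and 10 were lower in replicate 2, against 29.1% and 27.0% of all genes tested. Their median log2 ratio was -1.10, against -0.09 for the nuclear members. Their TPM summed to 7569 in replicate 2 and 15447 in replicate 1, while the nuclear members summed to 31761 in replicate 2 and 32615 in replicate 1. The message mt-Co1, the catalytic subunit of complex IV, stood at 3403 TPM in replicate 2 and 6198 TPM in replicate 1. Short mitochondrial genes make these sums rough: mt-Nd4l is listed at 0 in replicate 2, and mt-Atp8 is listed at 242 TPM in replicate 2 on 38 counts and at 0 TPM in replicate 1 on 64 counts. Cytosolic ribosomal protein genes, 86 in number, had a median log2 ratio of -0.12, with 28 higher and 48 lower of 83 tested. The 77 of the mitochondrial ribosome had 0.00, with 25 higher and 20 lower.

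Other lists around the chain are given by their counts, beside 29.1% of all genes tested higher in replicate 2 and 27.0% lower. Among TCA cycle enzymes 1 of 14 was higher and 11 lower in replicate 2, at a median log2 ratio of -0.13. Among other proteins that feed electrons to the chain, such as the electron transfer flavoprotein, 2 of 9 were higher and 3 lower. Assembly factors outside the naming rule had 13 of 38 tested higher and 10 lower. Of 16 factors known to act on nuclear respiratory genes, 15 reached a TPM of 1 in both libraries, and 4 were higher and 6 lower in replicate 2. Yy1, a DNA-binding factor with sites in such promoters, stood at 87.2 TPM in replicate 2 and 52.1 TPM in replicate 1, Nrf1 at 32.8 and 39.0 TPM, and Gabpa at 4.93 and 6.26 TPM. Ppargc1a, a coactivator induced by cold and exercise in other tissues, was at 1.37 and 2.37 TPM in replicates 2 and 1.

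Promoters are shown because several of those factors bind known letters in them. RefSeq promoter windows on GRCm38.p6, from 250 bases before the gene start to 50 bases after it, matched 77 of 95 members, 82 windows in all. The letters GCGCATGCG, bound by NRF1, were in 13.4% of the member windows, on either strand, against 2.35% of all 21262 windows of protein-coding genes. The 3 members with the highest TPM that hold them within the 250 bases before the start are printed 5′ to 3′, with the matched bases in capitals. In each, matches on both strands overlap in 10 bases.
Cox6a1 (chr5:115348959-115349208, minus strand): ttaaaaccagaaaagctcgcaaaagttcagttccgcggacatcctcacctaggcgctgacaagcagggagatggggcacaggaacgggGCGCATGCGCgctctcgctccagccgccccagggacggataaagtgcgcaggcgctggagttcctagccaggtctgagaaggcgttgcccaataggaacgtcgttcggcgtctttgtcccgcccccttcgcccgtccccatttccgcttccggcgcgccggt
Atp5g2 (chr15:102671048-102671297, minus strand): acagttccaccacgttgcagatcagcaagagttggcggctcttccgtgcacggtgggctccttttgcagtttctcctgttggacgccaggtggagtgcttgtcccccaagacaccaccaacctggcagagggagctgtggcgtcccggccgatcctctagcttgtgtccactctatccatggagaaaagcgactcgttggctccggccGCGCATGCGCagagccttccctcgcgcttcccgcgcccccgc
Ndufa11 (chr17:56717512-56717761, plus strand): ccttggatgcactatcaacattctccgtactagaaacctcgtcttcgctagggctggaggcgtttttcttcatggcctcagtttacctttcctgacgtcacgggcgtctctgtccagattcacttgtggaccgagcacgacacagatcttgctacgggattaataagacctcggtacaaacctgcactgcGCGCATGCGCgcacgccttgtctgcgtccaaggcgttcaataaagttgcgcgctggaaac
The matches begin 162, 42 and 60 bases before the start of Cox6a1, Atp5g2 and Ndufa11. Ndufa11, an accessory subunit of complex I, stood at 94.4 and 88.6 TPM in replicates 2 and 1. The 3 were printed because of their TPM, so no link of the letters with level can be read from them. The letters were also in the windows of Uqcr11 (1445 and 1792 TPM in replicates 2 and 1) and of Cycs (0.65 and 0.83 TPM).

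The shorter GCATGCG was in 17.1% of member windows and 4.44% of all windows, and includes the longer match. For GABPA, CCGGAAGT was in 6.10% and 5.15%, and the shorter CCGGAAG, which it contains, in 22.0% of member windows and 11.6% of all windows. The YY1 letters AAGATGGC were in 13.4% of member windows and 3.05% of all windows. In the 250 bases before the start alone they were in 1.22% of member windows and 1.496% of all windows. So nearly all matches in member windows lay at or after the start, while over all windows many lay before it. The SP1 letters GGGCGG were in 45.1% and 46.2%, and TATAAA in 9.76% and 12.6%. A match is a stretch of letters, not a measured site. Genes with several starts share windows, and no test was made.

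**Figure D5:**
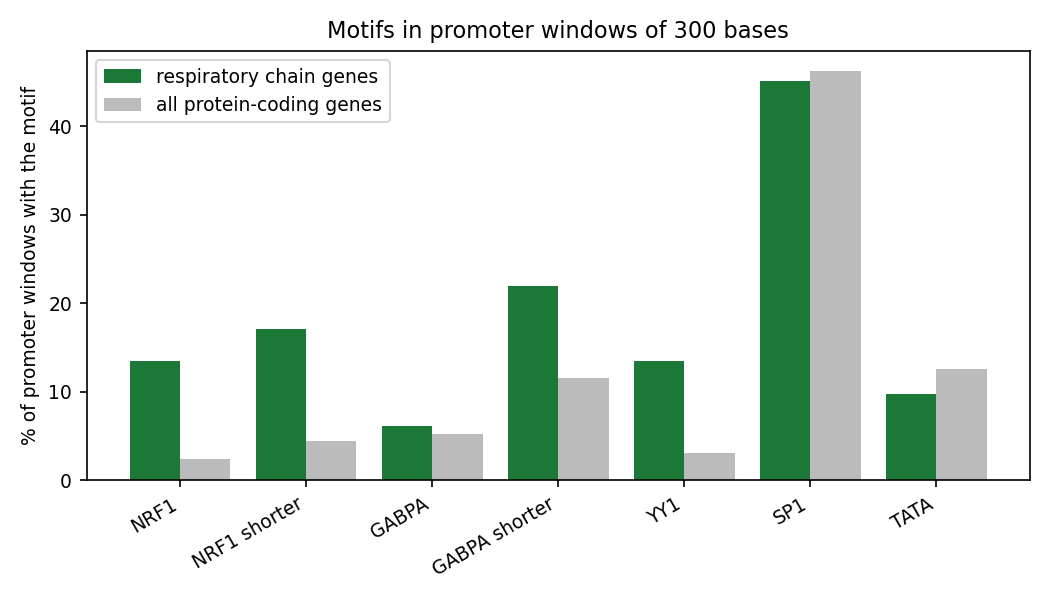
Percent of promoter windows of 300 bases that hold each motif, for the 82 windows of respiratory chain genes (green, left) and all 21262 windows of protein-coding genes (grey, right). The NRF1, shorter GABPA and YY1 letters are in a larger share of the windows of respiratory chain genes, and the SP1 and TATA letters are not.

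The libraries as a whole held 34930860 gene counts in replicate 2 and 41124061 in replicate 1. The ovary label fits its markers: the granulosa markers Foxl2, Amh, Inha, Fshr and Cyp19a1, 4 markers of steroid-making cells and 4 of oocytes all reached 1 TPM in each library. Inha was at 6279 TPM in replicate 2 and 7396 TPM in replicate 1. Markers of other cells were present too. White adipocyte markers, 8 of 8, summed to 4463 TPM in replicate 2 and 3570.4 TPM in replicate 1. All 6 smooth muscle markers summed to 3965 and 4355 TPM, and 3 markers of oviduct epithelium to 685 and 764 TPM. Red cell markers, 5 of 5, summed to 2254 TPM in replicate 2 and 1085 TPM in replicate 1 and were all higher in replicate 2. Their part in the ratios of respiratory chain genes was not tested.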

How the data were processed

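Expression was measured by RNA sequencing in 2 libraries of mouse ovary, labelled replicates 1 and 2. The authors deposited gene and transcript tables with expected counts (estimated reads per gene, not scaled) and TPM, made on mm10 with GENCODE M4 per the notes deposited with them. The authors also deposited the percent of each gene's TPM held by each transcript. For the aligner and quantifier, not given in the sources used here, no name is stated. Deposited junction and contig tables on mm9 were not used.

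Names and transcript types came from GENCODE M21 by Ensembl id without version (42462 of 43346 mouse gene rows matched). The members and lists were chosen with earlier results of these data known. Expected counts were rounded to whole numbers and scaled by TMM (edgeR 4.0.16, R 4.3.3). With 1 library a side edgeR's quasi-likelihood test has no residual degrees of freedom, so each gene averaging 20 counts or more had a two-sided exact binomial test (scipy 1.17.1) with Benjamini-Hochberg adjustment at 0.05 over all 15939 genes, and log2 ratios used a prior count of 1. The calculation was tested on simulated data.

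ERCC spike-ins held 0.986% of counts in replicate 2 and 0.764% in replicate 1. A floor of 3 counts was 0.0859 CPM in replicate 2 and 0.0729 CPM in replicate 1, and floors cover counting error only. Copies of coding sequences were found with BLAST+ 2.17.0. Alternatives were DESeq2 1.42.0 size factors, spike-in scaling, posterior mean values, full transcript lengths, other thresholds and, chosen after seeing the data, coding transcripts alone, near copies added, all members of a complex and transcripts ranked by count. Named genes were core subunits, genes of paralog sets, the 3 highest and 3 lowest of each complex, the largest ratios and those whose leading transcript changed. Others named in the text were chosen after their values were seen. Values of 1 gene named by that rule are not reported here.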

Additional observations from a re-analysis of the deposited data

How the results depend on the processing

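No paired analysis was possible because the libraries form a single group. Across 36 results and 195 alternatives, 161 alternatives left a count within 1.5-fold or a value within its spread, and 34 moved it. For the paralog shares, cytochrome c and the medians of complexes II and III, leaving out either library could not move the result. Their value was the midpoint of the same 2 libraries that gave their spread. Those alternatives are no evidence of stability. The spread of the medians of complexes I, IV and V also came from these libraries, so staying within it is weak evidence. With posterior mean values the median TPM was 342 for complex III and 0.905 for cytochrome c, and the shares of Cox7b2 and Cox8c were 0.138% and 0.00589%. With full annotated length it was 273 for complex III, 0.871 for cytochrome c, 267 for complex IV and 195.5 for complex V, and the shares were 0.0529% for Cox6a2, 2.60% for Cox7a1, 0.121% for Cox8b and 8.08% for Ndufa4l2. With coding transcripts alone cytochrome c was 0.535 TPM and the Cox6b2 share 9.02%, and with near copies added cytochrome c was 1.28 TPM. Complex IV was 492 TPM with Ndufa4 counted in complex I and 92.0 TPM over all its members. Leaving out either library gave 199.9 to 255 TPM for complex V. Spike-in scaling gave median log2 ratios of -0.52 over all members, against -0.44 over all genes tested, and -1.54 for mitochondrial messages. By complex it gave -0.52 for complex I, -0.54 for complex II, -0.53 for complex IV and -0.41 for complex V. Of 91 members 13 were then higher and 71 lower, against 7.16% and 71.7% of all genes. Over 2-fold 1 member was higher and 12 lower under spike-in scaling. On log2(TPM + 1) the median over all members was -0.18, and 2 members were over 2-fold higher. At 1.5-fold, 15 were higher and 12 lower. The shares of all genes past these folds were not counted, so these counts cannot be compared with other genes. By expected count 3 members had a non-coding leading transcript, and YY1 letters were in 1.22% of member windows before the start. With coding transcripts alone the log2 ratio turned to -0.71 for Atp5f1 and -0.19 for Ndufaf6. That follows from leaving out the counts assigned to their non-coding transcripts, which for Ndufaf6 lie almost wholly in coding exons. The cause of the other shifts was not tested. Cytochrome c has no value where genes under a TPM of 1 are left out. Depth limits the 13 members under 100 counts in both libraries: Uqcrb, Cycs, Atp5mpl, Atp5s, Ndufa5, Ndufaf1, Ndufaf2, Ndufaf5, Cox6a2, Cox7a1, Cox8b, Cox7b2 and Cox8c.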

Other observations

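A copy of Cox7c, the processed pseudogene Gm12338, stood at 312 TPM in replicate 2 on 16.7 counts and is listed at 0 TPM in replicate 1 on 8.08 counts.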
